A study of Mus musculus with 6 samples.

Results

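The complement and coagulation factors of the liver were followed here as a list of 41 genes chosen by symbol, 18 of complement and 23 of blood clotting and its control. All 41 had a row among the 35977 genes of the count table. Serine protease inhibitors of the serpin family were not included. The data are bulk messenger RNA counts from mouse liver, in 2 groups of 3 libraries. The Cre-miR122 group (replicates 1, 2 and 4) came from livers of mice injected with an adeno-associated virus of serotype 9 (AAV9) in which the promoter of Tnnt2, the cardiac troponin T gene, drives Cre recombinase, with added target sites of miR-122, which hepatocytes hold in abundance as one of their main microRNAs. The Cre group (replicates 10, 11 and 12) received the same kind of virus without the target sites. The comparison asks whether the target sites change the RNA of the transduced liver. The promoter is one directed to heart muscle, so the liver is not the tissue that the vector was built for. The labels give no strain, age, sex, dose or time after injection, nor do they say whether each library came from its own animal, and p-values measure the spread between these libraries, which may be technical in part.

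Complement is a cascade of plasma proteins that tags and lyses microbes. Lectins and antibody-bound proteases start it, convertases built around C3 amplify it, and the terminal components assemble a pore in the target membrane. Coagulation is a second protease cascade that runs from tissue factor or the contact system through thrombin to fibrin, and it is held in check by tissue factor pathway inhibitor, the protein C system and plasmin. Hepatocytes make most of these proteins and secrete them into blood, while factor VIII, von Willebrand factor and tissue factor pathway inhibitor come largely from endothelial cells.

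Total counts per library lay between 20340994 and 20817837. The Cre row itself had 12, 16 and 10 counts in Cre-miR122 livers, against 61, 50 and 37 counts in Cre livers. Cre replicate 10 differed from the other 5 libraries in sex-linked RNA, with Xist at 5 and Ddx3y at 1676 counts, while elsewhere Xist was at 15778 counts or more and Ddx3y at 1 count or fewer. This is a male pattern in Cre replicate 10 and a female pattern in the other 5 libraries. Sex was thus mixed in the Cre group only. The fit used group alone, and the part of sex in the differences was not tested. Hepatocyte markers (10 genes, among them Alb, Ttr and Apoa1) summed to between 143835 and 144342 CPM, that is counts per 1e6 scaled counts, in Cre-miR122 livers, against 142449, 124260 and 148032 CPM in Cre replicates 10, 11 and 12, with Alb as most of that sum. The single markers differed in direction in Cre replicate 11, where Alb, Tat, Cps1 and Ass1 were at their lowest and Apoa1, Apoa2, Asgr1 and Serpina1c at their highest of the 6 libraries. Each list of markers for another cell type was present at a far lower sum, with no marker at 0 in all 6 libraries. In bulk tissue, fewer cells of a type and less RNA per cell cannot be told apart.

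No gene of complement or coagulation was called different between the vectors. With the edgeR quasi-likelihood test and a Benjamini-Hochberg adjusted p under 0.05 over all 14374 genes tested, 0 of the 41 genes were called, where 0% of all genes were called, and the smallest adjusted p among the 41 was 0.816. At an unadjusted p under 0.05 the count was also 0 of 41, beside 5.41% of all genes. The Cre row, lower in Cre-miR122 livers with a log2 fold change of -1.95 (SE 0.28), was not called either (edgeR adjusted p = 0.816). So a gene left uncalled here is not shown to be unchanged. DESeq2 called 0 of the 41 (0.0209% of all genes) and limma-voom called 0 of the 41 (0% of all genes), and neither had a member at an unadjusted p under 0.05. The CPM values of the groups overlapped for all 41 genes, while they did not overlap for 11.1% of all genes tested. A log2 fold change above 0, that is higher in Cre-miR122 livers, was seen for 31 of the 41, beside 49.4% of all genes, and the median over the 41 was 0.067, beside -0.0029 over all genes.

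The intervals of the estimates were narrow for the difference between these libraries. They were made gene by gene, and if libraries share an animal they do not cover the spread between animals. The 95% interval of the edgeR fold change lay between 1.5-fold lower and 1.5-fold higher for 40 of the 41 genes and within 2-fold for all 41. C9, the last component added to the lytic pore, was the exception at 1.5-fold, with an interval of 0.746 to 1.57 times the level in Cre livers. Standard errors ran from 0.078 to 0.24 on the log2 scale with a median of 0.099, beside 0.13 over all genes. That is close to the median of 0.097 for the 1285 genes with a mean of at least 100 CPM, to which 34 of the 41 belong (median 0.098).

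**Figure D1:**
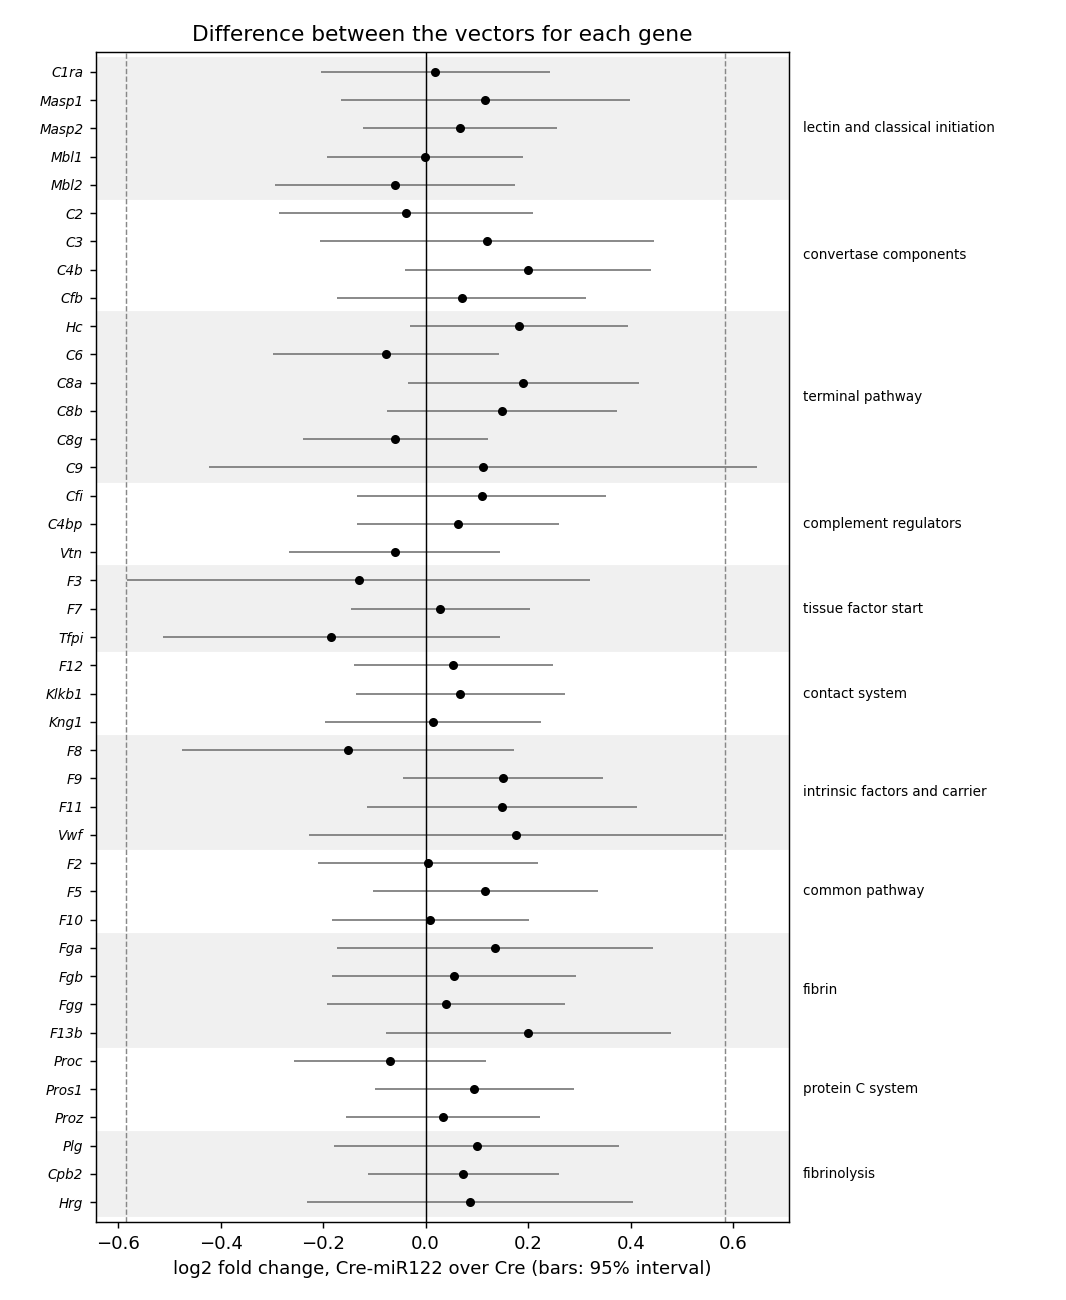
Points give the log2 fold change of each gene, Cre-miR122 over Cre, from the edgeR fit, and bars its 95% interval; dashed lines mark 1.5-fold in either direction and bands the role of the gene. All 41 intervals include 0 and only that of C9 crosses a dashed line, reaching 1.57-fold.

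The level of these genes spanned more than 3 orders of magnitude. Levels are given as CPM per kilobase of exon (FPKM), so that genes can be compared. Fgb was the most abundant, followed by Vtn, Fgg, C3, Plg and Fga. The 10 most abundant of the 41 held 79.1% of their summed FPKM. FPKM was at least 100 for 22 genes and under 10 for 5, namely C6, Tfpi, F3, Vwf and F8. As a share of all counts, the 41 genes took 3.97%, 4.37% and 4.45% in Cre-miR122 replicates 1, 2 and 4, against 4.10%, 3.90% and 4.32% in Cre replicates 10, 11 and 12. The highest shares of both groups lay close together and the ranges overlapped.

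**Figure D2:**
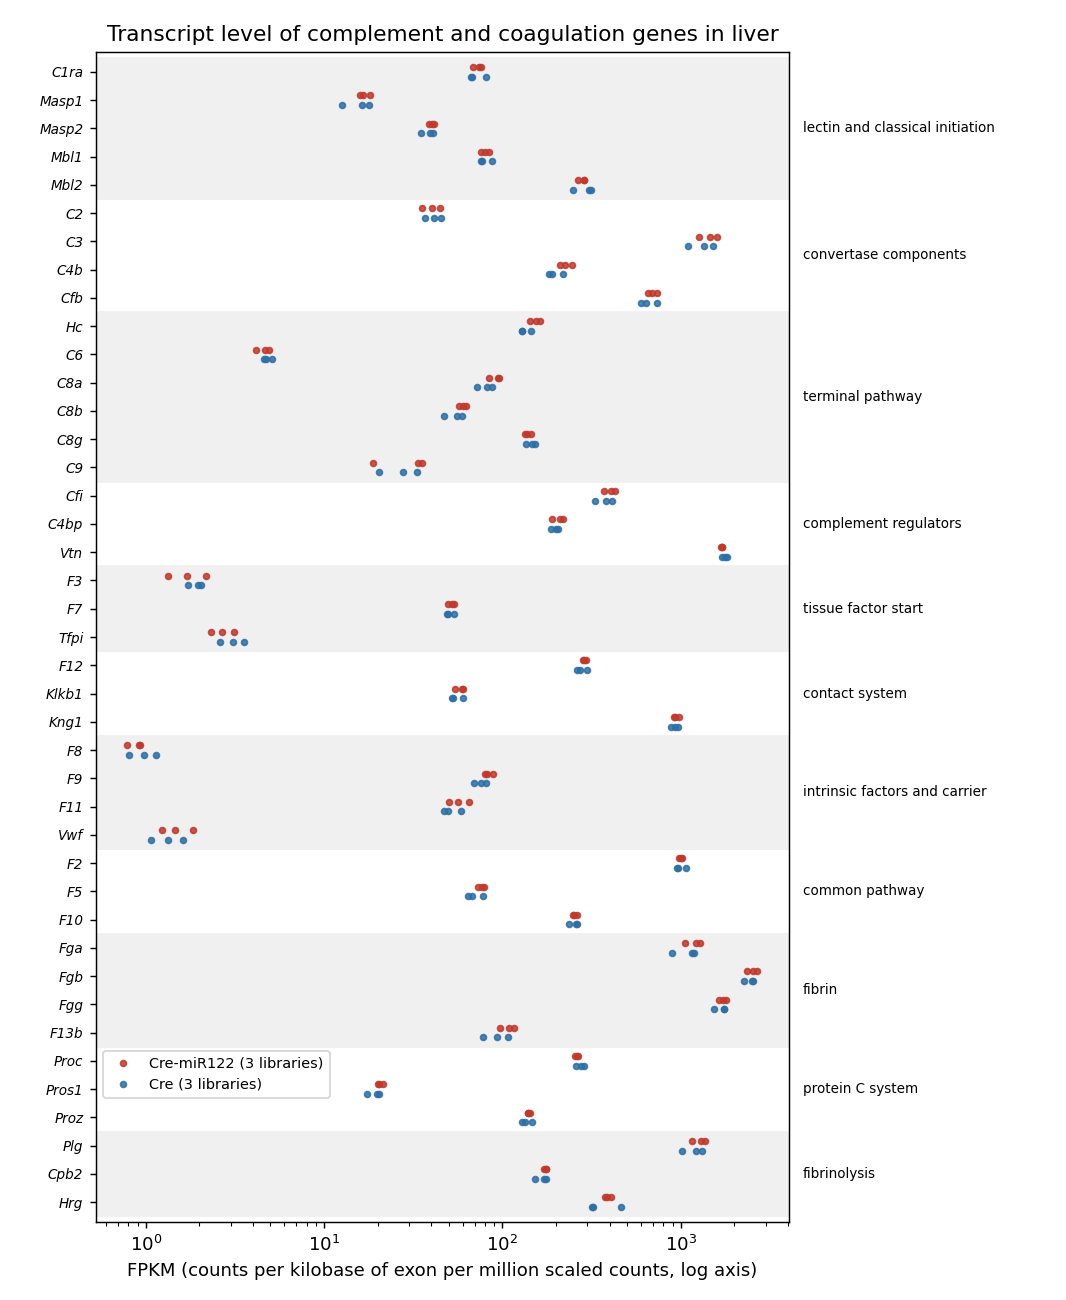
Each point is 1 library, with FPKM on a log axis, red for Cre-miR122 and blue for Cre; bands mark the role of the gene. The groups overlap for every gene, and the range runs from under 1 FPKM for F8 to 2688 FPKM for Fgb.

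The genes that start complement by the lectin and classical routes lay above 0 in 3 of 5 cases. Mbl2 encodes a mannose-binding lectin, a plasma protein that recognises microbial sugars, and had 285, 288 and 264 FPKM in Cre-miR122 livers, against 250, 315 and 307 FPKM in Cre livers. The lowest and the highest value both fell in the Cre group, and the log2 fold change was -0.059 (SE 0.10). Masp1, a protease carried by the lectins, had 16.5, 15.9 and 18.1 FPKM in Cre-miR122 livers, against 16.2, 12.5 and 17.8 FPKM in Cre livers. Only Cre replicate 11 stood below the rest, and the log2 fold change of 0.12 (SE 0.13) became -0.017 without it. The second lectin gene Mbl1, the protease gene Masp2 and C1ra, which encodes the C1r protease of the classical pathway, had log2 fold changes of -0.0019, 0.067 and 0.019. The Masp2 value is uncertain, since 54.1% of its exon bases are shared with Tardbp on the other strand and the strand setting of the counting is not given.

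Of the 4 convertase genes 3 lay above 0, and the most abundant was C3, the central component of all complement pathways. It had 1266, 1457 and 1599 FPKM in Cre-miR122 livers, against 1357, 1104 and 1517 FPKM in Cre livers. The libraries of the groups were interleaved, and the log2 fold change was 0.12 (SE 0.15). C4b, whose product joins C2 in the convertase of the classical and lectin pathways, had 209, 223 and 246 FPKM in Cre-miR122 livers, against 190, 183 and 218 FPKM in Cre livers. Cre replicate 12 reached into the range of Cre-miR122, and the log2 fold change was 0.20 (SE 0.11, edgeR adjusted p = 0.816). Reads of C4b and of its near-identical neighbour C4a can be split by the counting; C4a had 34 to 50 counts in Cre-miR122 livers and 47 to 62 counts in Cre livers. Cfb, the protease subunit of the alternative pathway convertase, had a log2 fold change of 0.070 (SE 0.11). C2 stood at -0.038 (SE 0.11), with the lowest and the highest of its 6 values, 35.3 and 45.1 FPKM, in Cre-miR122 replicate 1 and Cre replicate 12.

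Of the 6 terminal components 4 lay above 0. Hc, the mouse gene of complement C5, had the smallest p of all 41 genes. It had 142, 153 and 162 FPKM in Cre-miR122 livers, against 129, 129 and 145 FPKM in Cre livers. The groups overlapped only through Cre replicate 12 and Cre-miR122 replicate 1. Its log2 fold change was 0.18 (SE 0.095, edgeR adjusted p = 0.816), with an interval of 0.979 to 1.31 times the level in Cre livers. C8a, a chain of the pore component C8, had 84.3, 96.1 and 94.97 FPKM in Cre-miR122 livers, against 71.6, 82.3 and 87.4 FPKM in Cre livers, again overlapping through the same libraries (log2 fold change 0.19, SE 0.10). C8b, the second C8 chain, stood at 0.15 (SE 0.099), while C8g, the third, stood at -0.059 (SE 0.080) and C6 at -0.077 (SE 0.098). So the 3 chains of the same protein did not share a direction, none of them past the test. C9 varied most between libraries. It had 18.9, 33.6 and 35.6 FPKM in Cre-miR122 livers, against 27.7, 20.4 and 33.4 FPKM in Cre livers. Cre-miR122 replicate 1 and Cre replicate 11 were low and the others high, and the highest value was 1.89 times the lowest (log2 fold change 0.11, SE 0.24).

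Of the 3 regulators of complement 2 lay above 0, and they included the steadiest gene of the 41. Vtn encodes vitronectin, which blocks insertion of the pore, and had 1705, 1673 and 1699 FPKM in Cre-miR122 livers, against 1774, 1705 and 1816 FPKM in Cre livers. Cre replicate 11 and Cre-miR122 replicate 1 nearly coincided, and all 6 values lay within 1.09-fold of each other (log2 fold change -0.060, SE 0.091). With upper-quartile scaling, with none, with the 10 most abundant genes left out or with a CPM minimum of 1 the groups no longer overlapped, Cre-miR122 below. The same held for 10.2% to 11.2% of all genes in these settings, in either direction. Cfi, the protease that cleaves C3b and C4b, had 372, 406 and 430 FPKM in Cre-miR122 livers, against 379, 330 and 411 FPKM in Cre livers. Cre replicate 11 was lowest and the rest were interleaved (log2 fold change 0.11, SE 0.11). C4bp, whose product binds C4b as a cofactor of that protease, had 191, 218 and 209 FPKM in Cre-miR122 livers, against 188, 199 and 205 FPKM in Cre livers. Its groups lay across each other, and the log2 fold change was 0.063 (SE 0.087).

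Coagulation starts with tissue factor, and of the 3 genes at this step 1, F7, lay above 0. F3, the tissue factor gene, was among the least abundant. It had 64, 85 and 52 counts in Cre-miR122 livers, against 65, 82 and 74 counts in Cre livers. The highest and the lowest library both belonged to Cre-miR122, the log2 fold change was -0.13 (SE 0.20), and without Cre-miR122 replicate 4 it was 0.028. F7, the hepatocyte-made protease that binds tissue factor, had 49.8, 53.6 and 52.1 FPKM in Cre-miR122 livers, against 49.1, 49.5 and 53.8 FPKM in Cre livers. All 6 values were close, and the log2 fold change of 0.029 had the smallest standard error of the 41, 0.078. Tfpi, the inhibitor of that complex, had 3.13, 2.68 and 2.34 FPKM in Cre-miR122 livers, against 3.57, 2.62 and 3.07 FPKM in Cre livers. Cre replicate 10 was highest and the groups overlapped, with a log2 fold change of -0.18 (SE 0.15).

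All 3 genes of the contact system and 3 of the 4 intrinsic and carrier genes lay above 0. Kng1, the gene of high molecular weight kininogen, had 972, 913 and 932 FPKM in Cre-miR122 livers, against 933, 887 and 970 FPKM in Cre livers. Its log2 fold change of 0.014 (SE 0.094) was among the smallest and took the other sign with upper-quartile scaling or none. Kng1 and its near-identical neighbour Kng2, with 6848 to 7660 counts per library, can share reads. Klkb1, the gene of plasma prekallikrein, had 54.3, 59.3 and 60.1 FPKM in Cre-miR122 livers, against 52.8, 52.4 and 60.5 FPKM in Cre livers. The highest and the lowest were Cre libraries, and the log2 fold change was 0.068 (SE 0.091), beside 0.054 (SE 0.086) for F12, the gene of factor XII. F9, an X-linked gene whose loss causes haemophilia B, had 88.7, 81.8 and 80.3 FPKM in Cre-miR122 livers, against 75.7, 69.7 and 80.4 FPKM in Cre livers. Cre-miR122 replicate 4 and Cre replicate 12 nearly coincided. The groups were apart, with Cre-miR122 above, under RLE scaling, with no scaling and with no filter. In these settings 9.19% to 11.1% of all genes were apart, in either direction. The log2 fold change of F9 was 0.15 (SE 0.087). F11, the substrate of factor XII, stood at 0.15 (SE 0.12).

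F8 and Vwf, made mainly by endothelium, had few reads. F8, the gene of factor VIII, had 0.922, 0.790 and 0.927 FPKM in Cre-miR122 livers, against 1.15, 0.810 and 0.9755 FPKM in Cre livers. Cre replicate 10 was highest, and the log2 fold change was -0.15 (SE 0.14). Vwf, the gene of the factor VIII carrier, had 1.84, 1.24 and 1.46 FPKM in Cre-miR122 livers, against 1.06, 1.34 and 1.61 FPKM in Cre livers. Cre-miR122 replicate 1 was highest and Cre replicate 10 lowest, and the log2 fold change was 0.18 (SE 0.18). The sum of 10 sinusoidal endothelial markers was 407 to 481 CPM in Cre-miR122 livers and 410 to 514 CPM in Cre livers. It was highest in Cre replicate 10, the library in which F8 and Tfpi were highest. Single markers differed, with Fcgr2b, Kdr, Pecam1, Cdh5, Eng and Oit3 highest in Cre replicate 10. Stab1, Stab2, Lyve1 and Clec4g were highest in Cre-miR122 replicate 1, and Lyve1 was lowest in Cre replicate 10 (12.8 CPM). The sum of 10 megakaryocyte and platelet markers was 30.0 to 40.2 CPM in Cre-miR122 livers and 32.5 to 37.2 CPM in Cre livers, highest in Cre-miR122 replicate 1, where Vwf was highest. Itgb3 held 23.6 CPM of that highest sum and, like F13a1, peaked in that library. Pf4 and Ppbp were highest in Cre replicate 11 and Itga2b in Cre replicate 12. Large vessel endothelial markers, Vwf included, summed to 91.6 CPM in Cre-miR122 replicate 1, against 99.2 and 101 CPM in Cre replicates 10 and 12. The part of these cell types in the levels of F8, Tfpi and Vwf was not tested. Without Cre replicate 10, the library that also differed in sex-linked RNA, the log2 fold changes were -0.020 for F8, -0.066 for Tfpi and 0.036 for Vwf, and without Cre-miR122 replicate 1 that of Vwf was 0.013. Other libraries left out moved them away from 0. F8 stood at -0.27 without Cre replicate 11, Tfpi at -0.30 without Cre-miR122 replicate 1 and Vwf at 0.33 without Cre replicate 12. Without Cre replicate 11 the groups did not overlap for F8, beside 17.5% of all genes.

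The 3 genes of the common pathway lay above 0, of which F2 and F10 lay nearest to it. F2, the prothrombin gene, had 977, 1008 and 1018 FPKM in Cre-miR122 livers, against 967, 950 and 1076 FPKM in Cre livers. The Cre values enclosed the Cre-miR122 values, and the log2 fold change of 0.0047 (SE 0.096) took the other sign with upper-quartile scaling or none. F10, the gene of the protease that activates prothrombin, stood at 0.0094 (SE 0.085) and took the other sign under the same scalings. F5, the gene of its cofactor, had 72.7, 76.5 and 78.8 FPKM in Cre-miR122 livers, against 67.6, 64.4 and 78.2 FPKM in Cre livers. Cre replicate 12 lay among the Cre-miR122 values, and the log2 fold change was 0.12 (SE 0.098). In the protein C system 2 of 3 genes lay above 0. Proc, the gene of the anticoagulant protease, had 261, 266 and 255 FPKM in Cre-miR122 livers, against 257, 276 and 286 FPKM in Cre livers. Cre replicate 10 lay inside the range of Cre-miR122, and the log2 fold change was -0.070 (SE 0.083). Pros1, the gene of its cofactor protein S, had 20.2, 20.01 and 21.4 FPKM in Cre-miR122 livers, against 20.5, 17.4 and 19.9 FPKM in Cre livers. Only Cre replicate 11 stood apart, below, and the log2 fold change was 0.095 (SE 0.087). Proz, the gene of protein Z, a cofactor for inhibition of activated factor X, stood at 0.033 (SE 0.084).

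Fibrinogen, the protein that thrombin turns into fibrin, has 3 chains encoded close together on chromosome 3. In the files' build, GRCm38 (mm10), Fgg spans chr3:83007724-83015056 on the plus strand, Fga chr3:83026153-83033627 on the plus strand and Fgb chr3:83042246-83049863 on the minus strand. Gaps of 11096 bases between Fgg and Fga and 8618 bases between Fga and Fgb separate them, the second holding 1 other gene. Fgb had 2355, 2688 and 2553 FPKM in Cre-miR122 livers, against 2500, 2258 and 2551 FPKM in Cre livers. Fgg had 1638, 1797 and 1720 FPKM in Cre-miR122 livers, against 1740, 1527 and 1750 FPKM in Cre livers. For Fgb and Fgg the same library was highest, Cre-miR122 replicate 2, and the same lowest, Cre replicate 11. Fga had 1052, 1225 and 1290 FPKM in Cre-miR122 livers, against 1188, 897 and 1162 FPKM in Cre livers, and was also lowest in Cre replicate 11. The log2 fold changes were 0.056 (SE 0.11) for Fgb, 0.039 (SE 0.10) for Fgg and 0.14 (SE 0.14) for Fga, with overlap in each, and that of Fgg became -0.023 without Cre replicate 11.

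The proportions of the chains varied least between Fgb and Fgg. The ratio of Fgb to Fgg was 1.44, 1.496 and 1.48 in Cre-miR122 livers, against 1.44, 1.48 and 1.46 in Cre livers. The ratio of Fga to Fgb was 0.447, 0.456 and 0.505 in Cre-miR122 livers, against 0.475, 0.397 and 0.456 in Cre livers. The ratio of Fga to Fgg was 0.642, 0.682 and 0.750 in Cre-miR122 livers, against 0.683, 0.587 and 0.664 in Cre livers. Both of these ratios were lowest in Cre replicate 11. F13b, the gene of the carrier chain of factor XIII, which cross-links fibrin, had 96.6, 109 and 116 FPKM in Cre-miR122 livers, against 93.8, 78.3 and 108 FPKM in Cre livers. Cre replicate 11 was again lowest, and the log2 fold change of 0.20 (SE 0.12) was the highest of the 41. All 4 fibrin genes and all 3 genes of fibrinolysis lay above 0. Plg, the plasminogen gene, had 1153, 1294 and 1362 FPKM in Cre-miR122 livers, against 1215, 1022 and 1318 FPKM in Cre livers (log2 fold change 0.10, SE 0.12). Cre replicate 11 was lowest and Cre-miR122 replicate 4 highest. Cpb2, which encodes an inhibitor of fibrin breakdown, had 176, 176 and 171 FPKM in Cre-miR122 livers, against 170, 152 and 175 FPKM in Cre livers. Again Cre replicate 11 was lowest, and the log2 fold change was 0.074 (SE 0.083). Hrg, the gene of the plasminogen-binding histidine-rich glycoprotein, stood at 0.087 (SE 0.14), with its highest value of 461 FPKM in Cre replicate 12 and its lowest of 319 FPKM in Cre replicate 11.

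Because the fibrinogen genes were among the most abundant of the 41 and are neighbours, the 250 bases before the start of each are shown. They were taken from the RefSeq promoter table for build GRCm38.p6. A promoter was found there for 32 of the 41 genes, and in 25 of these, all fibrinogen genes included, the RefSeq start lay within 100 bases of the start of the counted gene. In the other 7 (C6, F13b, F7, F8, Hc, Masp2 and Proz) it lay 143 to 7640 bases inside the counted gene, so their windows are those of the RefSeq start. C2, C4b, Cfb, Cfi, Kng1, Masp1, Plg, Proc and Vwf were not matched. Capitals mark matches on either strand to letters known from liver transcription factors: the HNF1 half-site GTTAAT, the C/EBP site TTGCNNAA, the HNF4 site CAAAGNNCA and the STAT site TTCNNNGAA. They also mark the TATA box TATAAA, which is not particular to liver.
Fgg, chr3:83007474-83007723, plus strand: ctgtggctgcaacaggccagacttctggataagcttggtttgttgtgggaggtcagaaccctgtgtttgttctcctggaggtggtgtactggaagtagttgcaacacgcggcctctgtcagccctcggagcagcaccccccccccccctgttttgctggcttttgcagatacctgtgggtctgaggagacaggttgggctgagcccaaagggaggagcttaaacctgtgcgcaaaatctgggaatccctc
Fga, chr3:83025903-83026152, plus strand: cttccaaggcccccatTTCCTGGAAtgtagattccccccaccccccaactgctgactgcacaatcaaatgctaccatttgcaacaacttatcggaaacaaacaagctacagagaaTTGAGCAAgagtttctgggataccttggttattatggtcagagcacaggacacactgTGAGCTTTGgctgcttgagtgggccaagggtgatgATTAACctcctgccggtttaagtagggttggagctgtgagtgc
Fgb, chr3:83049864-83050113, minus strand: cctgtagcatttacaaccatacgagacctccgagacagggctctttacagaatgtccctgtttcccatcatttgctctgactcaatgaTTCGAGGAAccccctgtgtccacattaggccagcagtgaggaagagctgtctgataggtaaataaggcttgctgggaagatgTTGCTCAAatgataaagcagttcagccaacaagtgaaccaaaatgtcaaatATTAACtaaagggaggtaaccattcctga

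Fga held a STAT match 234 bases, a C/EBP match 135 bases, an HNF4 match 78 bases and an HNF1 match 43 bases before its start, none overlapping. Fgb held STAT, C/EBP and HNF1 matches that began 162, 80 and 29 bases before its start. Fgg held none of these letters in this window, which says nothing about the factors. The HNF1 half-site stood in 10 of the 32 genes with a promoter, beside 6.43% of all 32851 promoters of the table. The C/EBP site stood in 8 of the 32 beside 9.56%, the STAT site in 6 beside 7.02%, the HNF4 site in 4 beside 5.49% and the TATA box in 4 beside 12.4%. The HNF1 set was C1ra, C4bp, C8a, C8b, F13b, Fga, Fgb, Hc, Proz and Vtn. These matches are a description of the letters and not of binding.

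The vectors differ by target sites for miR-122, so seed matches of this microRNA were sought in the genes' own transcripts. Within the longest 3′ UTR of each of the 41 genes in GENCODE release M21 (43 to 3213 bases), the letters that pair with bases 2 to 8 of miR-122, ACACTCC, occurred in 2 genes, once each. The 23 bases around each site are printed with the match in capitals.
C4bp, base 703 of a 3′ UTR of 1433 bases: tgctggagctACACTCCcgatac
Tfpi, base 1186 of a 3′ UTR of 3063 bases: ctccagagaaACACTCCtcagac

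The log2 fold changes of these 2 genes, 0.063 for C4bp and -0.18 for Tfpi, lay on either side of 0, and neither passed the test. Of the 39 without a match, none passed either. The longest 3′ UTR was taken over all transcripts with a coding sequence, so it can be that of a minor one. For C4bp it has 1433 bases, while the counted gene has 1932 exon bases in all. Whether the C4bp site lies outside the coding sequence of its main transcript was not tested.

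Several members are neighbours in the genome, and 9 pairs lie within 250000 bases of each other, 6 of them with no other gene between. Cfb and C2 are 87 bases apart on chromosome 17, both on the minus strand. Cfb stood at 693 ± 38.4 FPKM in Cre-miR122 livers and 660 ± 71.4 FPKM in Cre livers, while C2 stood at 40.1 ± 4.82 FPKM in Cre-miR122 livers and 41.2 ± 4.13 FPKM in Cre livers (SD, n = 3 each). The ratio of Cfb to C2 lay between 15.4 and 18.6 over the 6 libraries. F7, F10 and Proz follow one another on the plus strand of chromosome 8 with gaps of 1502 and 3904 bases. Their levels were 51.8 ± 1.91, 254 ± 7.08 and 140 ± 1.56 FPKM in Cre-miR122 livers, against 50.8 ± 2.57, 253 ± 13.2 and 137 ± 9.25 FPKM in Cre livers. C8b and C8a lie 11130 bases apart on opposite strands of chromosome 4, and the ratio of C8a to C8b was 1.47, 1.54 and 1.58 in Cre-miR122 livers, against 1.28, 1.75 and 1.47 in Cre livers. F11 and Klkb1, 4637 bases apart on chromosome 8, did not keep a fixed proportion: Klkb1 over F11 was 0.837, 1.18 and 1.07 in Cre-miR122 livers, against 0.905, 1.12 and 1.22 in Cre livers. Hrg and Kng1 on chromosome 16 are 96560 bases apart with 1 gene between, and Kng1 over Hrg was 2.58, 2.24 and 2.41 in Cre-miR122 livers, against 2.88, 2.78 and 2.11 in Cre livers.

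Libraries of the same vector stood apart from each other across many of the 41 genes. Cre replicate 11 held the lowest value of 23 of the 41 genes and the highest of 3, and its median deviation from the mean of the 6 libraries was -0.14 on the log2 scale. Cre replicate 12 held the highest value of 12 genes and the lowest of 0, with a median deviation of 0.082. Both belong to the same vector. Genes far down in Cre replicate 11 were C9 (-0.43), Masp1 (-0.36), F13b (-0.35), Fga (-0.33) and C3 (-0.32), while F3 (0.17), Mbl2 (0.15), C6 (0.13) and Mbl1 (0.12) lay above their means there; these 9 were picked after their values were seen. Cre-miR122 replicate 1 shared the low C9 (-0.54) and had the highest Vwf (0.39) and F11 (0.26). The position of Cre replicate 11 depends in part on scaling: with total counts alone it held the lowest value of 12 genes and Cre replicate 10 that of 14, with median deviations of -0.058 and -0.057. The highest value of a gene was 1.24 times the lowest in the median over the 41, and between 1.09 and 1.89 times over all of them.

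**Figure D3:**
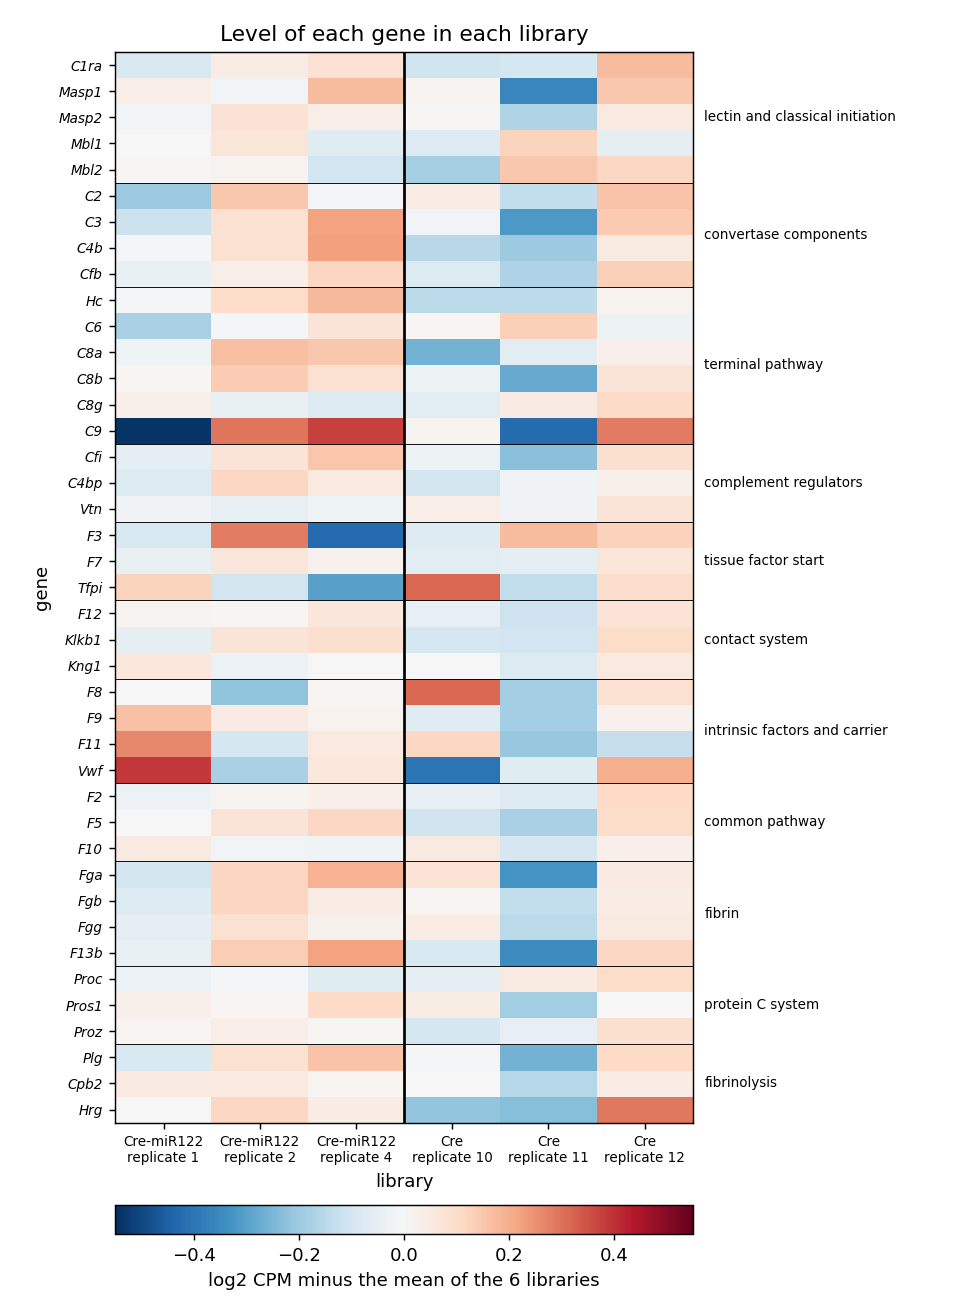
Colour gives log2 CPM of each gene in each library minus the mean of the 6 libraries, Cre-miR122 on the left of the line and Cre on the right. Cre replicate 11 is blue for most genes (median -0.14) and Cre replicate 12 pale red (median 0.082), and C9 is darkest, at -0.54 in Cre-miR122 replicate 1.

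The median over the 41 genes depended on single libraries. Without Cre replicate 11 their median log2 fold change was 0.0032 and 25 of 41 lay above 0. Without Cre replicate 12 the median was 0.11 and 32 lay above 0, without Cre replicate 10 it was 0.044, without Cre-miR122 replicate 2 it was 0.044 and without Cre-miR122 replicate 4 it was 0.040. The edgeR test called 0 of the 41 in each case. Without Cre replicate 12, 5 genes had an unadjusted p under 0.05 in that test (C4b, Hc, C8a, F13b and Hrg), and without Cre-miR122 replicate 1 C8a alone did. The share of all genes at that p was not counted in these fits, so the numbers have no background. The groups of the remaining 5 libraries did not overlap for 17 of the 41 genes without Cre replicate 12, beside 28.4% of all genes, and for 10 without Cre-miR122 replicate 1, beside 27.6%.

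**Figure D4:**
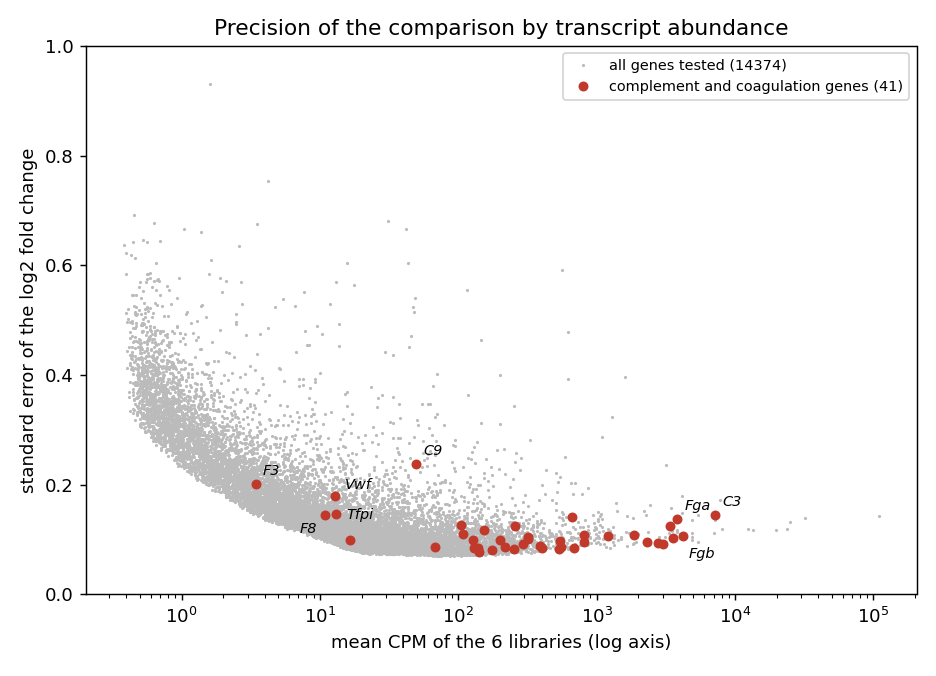
Each grey point is a gene tested, with its mean CPM on a log axis and the standard error of its log2 fold change; red points are the 41 complement and coagulation genes, and 4 genes with a standard error above 1 are off the axis. Red points of at least 100 CPM have a median of 0.098, beside 0.097 for all genes of that abundance, and C9 stands above its neighbours at 0.24.

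Other genes of the same pathways were read from 2 further lists. Of 38 further complement genes 33 were tested, 14 above 0 and 19 below, with a median log2 fold change of -0.010, and 0 were called. C1qb and C1qc, which encode chains of the recognition protein C1q made by macrophages, had the smallest p below 0. C1qb stood at 49.3 ± 2.36 CPM in Cre-miR122 livers and 58.6 ± 6.41 CPM in Cre livers (SD, n = 3 each), without overlap, with a log2 fold change of -0.25 (SE 0.096, edgeR adjusted p = 0.816), and C1qc had one of -0.23 (SE 0.10). The sum of 10 Kupffer cell markers, which include both genes, was 475 to 612 CPM in Cre-miR122 livers and 568 to 695 CPM in Cre livers. Of these markers 8 lay below 0, among them Vsig4 at -0.021 (SE 0.11) and Marco at -0.071 (SE 0.17). The other 2 lay above 0, Adgre1 at 0.26 (SE 0.18) and Cd163 at 0.48 (SE 0.23). The part of Kupffer cells in the C1qb and C1qc values was not tested. Among the further complement genes above 0 stood Susd4, the gene of a complement inhibitor (0.38, SE 0.17, without overlap). Cpn2, which encodes a subunit of the carboxypeptidase that trims C3a and C5a, also did (0.21, SE 0.11). Of 36 further coagulation genes 33 were tested, 11 above 0 and 22 below, with a median of -0.053, and 0 were called. Above 0 stood Lrp1, a hepatic receptor that clears factor VIII, at 0.30 (SE 0.12), and F2rl1, a protease-activated receptor gene, at 0.43 (SE 0.34). Anxa2, whose product binds plasminogen and its activator at the cell surface, stood at -0.34 (SE 0.14) and Vkorc1, the vitamin K reductase that warfarin inhibits, at -0.16 (SE 0.077, without overlap). None of the 8 genes named from the 2 pathway lists had an edgeR adjusted p below 0.816. Groups did not overlap for 1 gene above 0 and 1 below among the 33 complement genes. Among the 33 coagulation genes they did not overlap for 1 below 0. The share over all genes tested was 11.1%, in either direction.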

How the data were processed

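Messenger RNA of mouse liver was sequenced in 6 libraries, 3 for each vector, grouped by their titles. The authors deposited raw read counts for each gene, beside a gene length. STAR 2.7.9a, featureCounts 2.0.1 and build GRCm38 (mm10) are named in the submitters' processing notes, while for strand and multiple matches the counting options are not given in the sources. Per-sample columns that match no sample of the series, 5 in number, were not used. Libraries held 20340994 to 20817837 counts, and no pair was alike within counting error (lowest chi-square over its degrees of freedom 5.76).

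Genes passing filterByExpr, 14374 of 35977 and all 41 members among them, were fitted with edgeR 4.0.16 (quasi-likelihood F test, TMM scaling, group alone) in R 4.3.3, and p-values were adjusted over all of them. Standard errors were derived from the F statistic, and 95% intervals from the t distribution with the fit's degrees of freedom. CPM used TMM-scaled totals, FPKM divided CPM by the deposited exon length, and deviations used log2 of CPM with a pseudocount of 0.01. With 3 libraries against 3 an exact permutation test cannot go below 0.1. DESeq2 1.42.0, limma-voom (limma 3.58.1), other scalings and filters, and leaving out each library were tried. Tools were tested on simulated counts. The members, their 11 roles and the lists were chosen with earlier results of these data known. All members are reported; those described in full were the member with the highest FPKM and the one with the smallest p of each role, the fibrinogen chains, and F3, F8, Vwf and Tfpi. Others described with values by library were picked after their values were seen. From each list of other pathway genes, the 2 with the smallest p in each direction are named.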

Additional observations from a re-analysis of the deposited data

How the results depend on the processing

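No paired analysis was possible because the groups share no replicate number. Of 14 other settings, 0 of the 41 genes were called in any, and the sign of 28 genes held in all; C3 was not tested in 1 of them, where the 10 most abundant genes were left out. Over all genes edgeR called 2 with no filter beyond a count of at least 1, and DESeq2 called 3. The number of the 41 with groups that did not overlap was 1 with RLE scaling (F9), 1 with upper-quartile scaling, 1 with the 10 most abundant genes left out, 1 with a CPM of at least 1 in 3 libraries (Vtn in these 3), 1 with no filter (F9), 2 with no scaling (both) and 2 to 17 with 1 library left out, where fewer libraries separate more easily. The share over all genes was 9.19% to 11.2% for these scalings and filters. With 1 library left out it was 17.1% to 28.4%. Leaving out each library in turn gave medians over the 41 genes of 0.0032 to 0.11.

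Signs turned for 13 genes, all with a log2 fold change smaller than its standard error. With upper-quartile scaling these were Kng1 (-0.0022), F2 (-0.011) and F10 (-0.0066), with no scaling Kng1 (-0.0064), F2 (-0.015) and F10 (-0.010), and Mbl1 stood at 0.0041 with no filter and at 2.51e-05 with limma-voom. With 1 library left out C1ra ran from -0.030 to 0.12, Masp1 from -0.017 to 0.23, Mbl1 from -0.037 to 0.061, Mbl2 from -0.16 to 0.00099, C2 from -0.13 to 0.047, C9 from -0.058 to 0.35, F3 from -0.33 to 0.028, Kng1 from -0.020 to 0.045, F2 from -0.030 to 0.063, F10 from -0.034 to 0.036, Fgg from -0.023 to 0.074, Proz from -0.0061 to 0.089 and Hrg from -0.0065 to 0.28. The cause was not tested. F3, F8, Vwf and Tfpi had few counts, 52 to 335 per library, and standard errors of 0.20, 0.14, 0.18 and 0.15. C3, with at least 123310 counts per library, had 0.15, and C9 had the largest, 0.24. The part of depth in these errors was not tested.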

Other observations

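Markers of other cell types gave the following sums over each list, as values with no comparison. Stellate and fibroblast markers summed to 903 to 1030 CPM in Cre-miR122 livers and 800 to 1131 CPM in Cre livers, and large vessel endothelial markers, which include Vwf, to 89.0 to 91.6 CPM in Cre-miR122 livers and 80.8 to 101 CPM in Cre livers. Neutrophil and monocyte markers summed to 45.3 to 57.3 CPM in Cre-miR122 livers and 57.8 to 61.2 CPM in Cre livers, and B cell markers to 12.97 to 16.97 CPM in Cre-miR122 livers and 22.3 to 28.2 CPM in Cre livers. Cholangiocyte markers summed to 84.4 to 98.5 CPM in Cre-miR122 livers and 85.1 to 97.1 CPM in Cre livers, and erythroid markers to 335 to 463 CPM in Cre-miR122 livers and 211 to 551 CPM in Cre livers.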
